A study of Mus musculus with 6 samples.

Results

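The SLC25 family comprises the carriers that move metabolites across the inner mitochondrial membrane, and its transcripts were described here in mouse liver. A row of the count table was taken as a member when its gene symbol began with Slc25a followed by a number. The rule found 41 members among 12027 rows. The annotation held 48 such symbols, and the 7 without a row (Slc25a2, Slc25a18, Slc25a31, Slc25a41, Slc25a43, Slc25a54 and the pseudogene Slc25a5-ps) were not analysed here. The members were sorted into 7 groups by their known substrate.

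The study addressed how the sugar modification O-GlcNAc in hepatocytes bears on liver regrowth after partial hepatectomy, an operation that takes out some of the lobes. OGT is the enzyme that puts O-GlcNAc on proteins and OGA is the enzyme that removes it. All groups were male C57BL/6 mice, 8 weeks old, that had undergone the operation, and RNA came from whole liver. OGA-KO mice (genotype OGA-/-) and their controls (OGAfl/fl) were sampled at 14 and 28 days, and OGT-KO mice (OGT-/y) and their controls (OGTfl/y) at 28 days. No OGT library of day 14 is among the 6 samples. Per the labels the knockouts were hepatocyte-specific, and the Cre driver is not given in the sources used here. Each of the 6 groups was 1 library made from a pool of 3 mice.

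Carriers of this family share a fold of repeated helix pairs and work by exchanging a molecule on one side of the inner membrane for a molecule on the other, or by carrying it with a proton. Through them ATP leaves the matrix, phosphate and carboxylates enter it, and cofactors made in the cytosol reach the enzymes that need them. In liver they feed the urea cycle with ornithine and aspartate, export citrate for fatty acid synthesis, import acylcarnitines for oxidation and bring iron and glycine to haem synthesis.

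The libraries held 20433100 to 29327722 counts. Levels are given as CPM, counts divided by the effective library size in units of 1000000, after TMM scaling (edgeR's correction for differences in RNA composition). The smallest member count in any library was 14. Oga had 282 counts in the OGA-KO library and 1525 in its control at 14 days, and 317 against 1760 at 28 days. Ogt had 1205 counts in the OGT-KO library and 1339 in its control, or 43.2 and 58.0 CPM (log2 ratio -0.43). The OGT-KO level was the lowest of the series. Most of the summed transcript remained, so it was not taken as a check of that label. Pancreas transcripts set 1 library apart: 6 acinar marker genes summed to 134 CPM in the OGA-KO library at 28 days, and 5 of the 6 were at 0 in each other library. Whole liver holds several cell types, and fewer cells of a type cannot be told apart from less RNA per cell.

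More members of the family fell than rose in the OGT-KO library at 28 days, and a few were far higher. By edgeR's quasi-likelihood test with Benjamini-Hochberg adjustment over all genes, 21 of the 41 members fell in OGT-KO liver (51.2%), 5 rose (12.2%) and 15 did not pass. Among all genes tested, 26.6% fell and 26.1% rose. The median log2 ratio of OGT-KO to control was -0.47 over the members and 0.00 over all genes, with 28 ratios below 0 and 13 above. By size, 7 members were at least 2-fold lower and 4 at least 2-fold higher, where 11.7% of all genes were that much lower and 16.4% that much higher. Scaled by library totals in place of TMM, which put the median of all genes at 0.36 and that of the members at -0.10, 11 members passed as lower and 9 as higher (15.5% and 44.4% of all genes). Of the 26 calls, 8 held in the same direction under all 10 alternatives tried (Slc25a4, Slc25a13, Slc25a16, Slc25a21, Slc25a23, Slc25a24, Slc25a42 and Slc25a47). How many of all called genes held in this way was not computed, so the count cannot be compared with a share of all genes. The fit had 1 library per group and 1 residual degree of freedom, and it assumed that the lone OGT libraries vary as the OGA libraries do.

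The OGT-KO library also lay at the edge of the whole series for most members. Its CPM was the lowest of all 6 libraries for 25 members (61.0%, against 36.7% of all genes) and the highest for 8 (19.5%, against 36.9%). All 5 members that rose were at their highest there, and 18 of the 21 that fell were at their lowest. The other 3 that fell, Slc25a28, Slc25a32 and Slc25a35, lay within the span of the OGA libraries. The calls were made from the same OGT-KO values, so a place of called members at the edge is largely built in. The like share of all called genes was not computed, so no conclusion is drawn from these counts. Member rows took 0.374% of all counts in the OGT-KO library (95% exact Clopper-Pearson interval 0.371 to 0.377), 0.402% in its control and 0.391 to 0.405% in the OGA libraries. Summed over members, CPM was 2738 in OGT-KO, 3802 in its control and 4233 to 4395 in the OGA libraries.

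**Figure D1:**
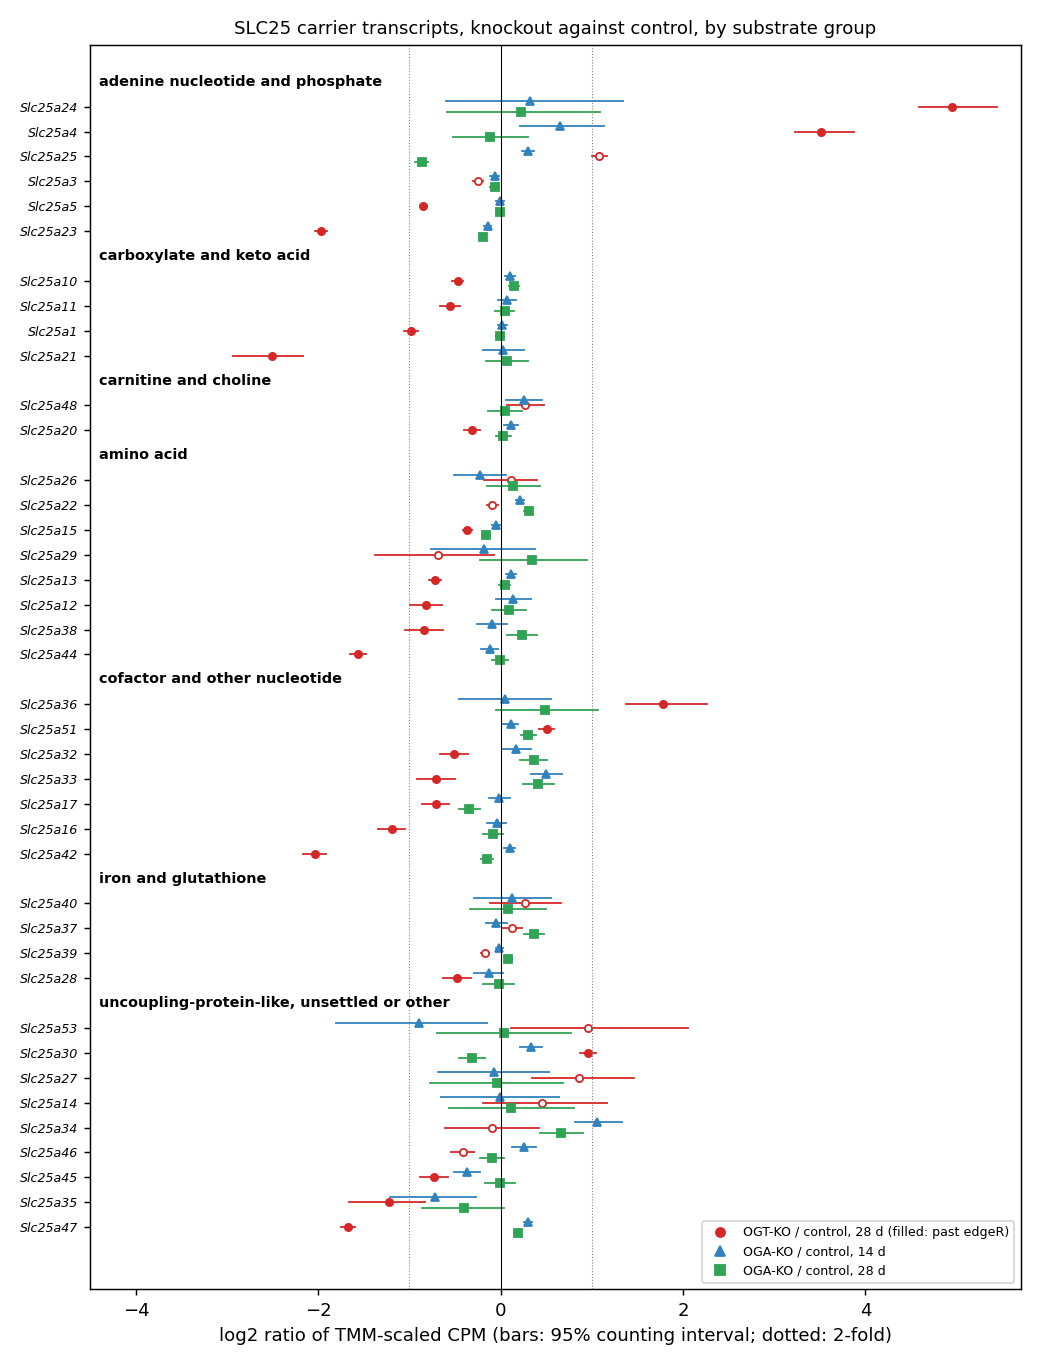
Log2 ratio of knockout to control for 40 of the 41 members, sorted by substrate group, with 1 row per gene. Red circles are the OGT pair at 28 days (filled where edgeR's test was passed), blue triangles and green squares the OGA pairs at 14 and 28 days, bars are 95% counting intervals and dotted lines mark 2-fold. Red points reach from -2.50 (Slc25a21) to 4.95 (Slc25a24), while blue and green points lie between -0.89 and 1.06.

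Marker transcripts of several kinds of liver cell differed in the same library, and these values stand beside every OGT comparison that follows. Over all genes 26.1% rose and 26.6% fell. All 6 cholangiocyte markers rose (summed CPM 459 in OGT-KO, 65.4 in control, 40.0 to 57.6 in the OGA libraries). All 8 stellate and matrix markers rose (2228, 243 and 145 to 217 in the same order), as did all 8 Kupffer cell and macrophage markers (1104, 264 and 155 to 189) and the 7 markers of dividing cells that had a row, of 8 listed (198, 23.9 and 11.7 to 15.1). Of 8 hepatocyte markers, 7 fell (54530, 79920 and 85340 to 93540), with a median log2 ratio of -0.66. The 3 neutrophil markers with a row, of 4 listed, rose (19.0, 2.77 and 3.32 to 5.63), as did Ptprc, the 1 lymphocyte marker with a row of 7 listed (22.9, 8.88 and 3.67 to 4.93). Of 7 endothelial markers, 1 rose and 3 fell (146, 161 and 165 to 179), and the 3 erythroid markers with a row, of 7 listed, fell (49.0, 177 and 253 to 326). The erythroid falls were unequal, with log2 ratios of -4.08 for Alas2, -0.70 for Hba-a1 and -0.44 for Hbb-bs. No marker of these lists that had a row was at 0 in any library. The part of these cell types in the carrier results was not tested.

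Promoter sequences are shown for 4 members with a single annotated start: the 2 with the highest and the 2 with the lowest OGT ratio for which at most 30 of the shown bases lie in an annotated transcript. Each is the 250 bases before the start from RefSeq, build GRCm38.p6, which is not the build of the count table (mm39), read 5′ to 3′ on the gene's strand. Capitals mark GGGCGG (the GC box), CCAAT and CACGTG (the E-box), on either strand. Slc25a24 (chr3:109122899-109123148, plus strand) and Slc25a30 (chr14:75787038-75787287, minus strand) rose, and Slc25a42 (chr8:70212282-70212531, minus strand) and Slc25a47 (chr12:108850879-108851128, plus strand) fell.
Slc25a24: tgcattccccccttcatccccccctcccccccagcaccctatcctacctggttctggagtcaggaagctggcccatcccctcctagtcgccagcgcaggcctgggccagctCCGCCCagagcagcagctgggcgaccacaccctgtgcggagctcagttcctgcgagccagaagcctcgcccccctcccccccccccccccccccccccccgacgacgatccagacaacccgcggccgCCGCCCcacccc
Slc25a30: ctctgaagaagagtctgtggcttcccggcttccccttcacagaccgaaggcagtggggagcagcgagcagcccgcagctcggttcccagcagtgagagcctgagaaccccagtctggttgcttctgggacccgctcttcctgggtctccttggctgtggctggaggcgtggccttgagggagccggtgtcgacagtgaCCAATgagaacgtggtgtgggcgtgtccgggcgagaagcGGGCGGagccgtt
Slc25a42: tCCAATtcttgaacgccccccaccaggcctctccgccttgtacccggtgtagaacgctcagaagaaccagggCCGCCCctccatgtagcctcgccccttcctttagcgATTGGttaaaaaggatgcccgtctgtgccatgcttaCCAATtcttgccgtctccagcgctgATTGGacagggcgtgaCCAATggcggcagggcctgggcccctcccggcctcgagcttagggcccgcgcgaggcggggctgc
Slc25a47: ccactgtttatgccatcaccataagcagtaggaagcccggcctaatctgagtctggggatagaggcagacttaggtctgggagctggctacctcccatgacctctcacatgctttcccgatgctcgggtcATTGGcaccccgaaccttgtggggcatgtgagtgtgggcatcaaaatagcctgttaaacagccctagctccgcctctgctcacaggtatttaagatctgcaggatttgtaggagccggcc
Slc25a24 held 2 GC boxes and Slc25a30 held 1 GC box and 1 CCAAT. Slc25a42 held 5 CCAAT and 1 GC box, and Slc25a47 1 CCAAT. Of the 41 members, 32 were in the RefSeq table, with 42 windows among 32851. The members' windows belong to genes with a row in the count table, and the 32851 were not limited to such genes. A GC box was in 73.8% of the members' windows and 32.7% of all windows, CCAAT in 50.0% and 33.8%, TATAAA in 2.38% and 12.4%, and CACGTG in 16.7% and 6.02%. The NRF1 half-site TGCGCA was in 7.14% and 6.43%, and AAAGTCC, a core of HNF4A sites, in 4.76% and 3.58%. All were searched on both strands, no motif of the list is contained in another, and the median GC content was 57.4% in the members' windows and 52.4% in all. The letters describe these windows and were not related to the expression values.

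The adenine nucleotide and phosphate carriers held both the largest rises and one of the largest falls of the family. Of the 6 members with a row (8 listed), 2 rose, 2 fell and 2 did not pass, beside 26.1% and 26.6% of all genes that rose and fell. The median log2 ratio was 0.42. Slc25a24 (ENSMUSG00000040322), the calcium-regulated ATP-Mg/phosphate carrier SCaMC1, was at 0.694 CPM in OGA control and 0.888 in OGA-KO at 14 days, 0.955 and 1.13 at 28 days, 2.12 in OGT control and 67.9 in OGT-KO. The OGT-KO level stood clear of the other 5, which were all near the bottom of the family. It rested on 1895 counts against 49, a log2 ratio of 4.95 (95% counting interval 4.59 to 5.44), and edgeR's adjusted p was 0.00011. Its paralogue Slc25a23 (ENSMUSG00000046329), SCaMC3, was at 469 and 426 CPM in OGA control and OGA-KO at 14 days, 508 and 442 at 28 days, 327 in OGT control and 83.5 in OGT-KO. It fell by 1.97 on the log2 scale, to the lowest level of the series (edgeR's adjusted p 0.000195). Slc25a25, SCaMC2, had 114 and 141 CPM in OGA control and OGA-KO at 14 days, 176 and 96.5 at 28 days, 69.1 in OGT control and 146 in OGT-KO. Here the OGT-KO value lay inside the span of the OGA libraries, and the log2 ratio of 1.08 did not pass (edgeR's adjusted p 0.0606). It passed as higher under 6 of the 10 alternatives, which were library totals (adjusted p 0.0228), no day term (0.046) and the 4 fits that left out an OGA library together with the day term (0.00618 to 0.0293), and over all 10 the adjusted p ran from 0.00618 to 0.689.

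The ADP/ATP exchangers, which pass ATP out of mitochondria in return for ADP, moved in opposite directions. Slc25a4 (ENSMUSG00000031633), ANT1, the form of heart and skeletal muscle, was at 2.65 CPM in OGA control and 4.22 in OGA-KO at 14 days, 4.20 and 3.88 at 28 days, 3.77 in OGT control and 43.9 in OGT-KO. The 5 other libraries lay close together, and the OGT pair differed by 1226 against 87 counts. The log2 ratio was 3.52 (counting interval 3.23 to 3.87) and edgeR's adjusted p 0.000473. Slc25a5, ANT2, the form of dividing and most other tissues, was at 333 and 331 CPM in OGA control and OGA-KO at 14 days, 342 and 341 at 28 days, 573 in OGT control and 318 in OGT-KO. It fell by 0.85 (edgeR's adjusted p 0.00163), yet the OGT-KO level was near the OGA libraries and it was the OGT control that stood apart. The call was lost in a fit without a term for the mouse line. Of the 50-base stretches in Slc25a5 transcripts, 33.8% also occur in transcripts of 9 other annotated genes, so its level is uncertain. Slc25a3, which brings phosphate into the matrix, was at 207 CPM in OGT-KO and 241 to 255 in the other libraries, and its log2 ratio of -0.25 (0.12 with library totals) did not pass.

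**Figure D2:**
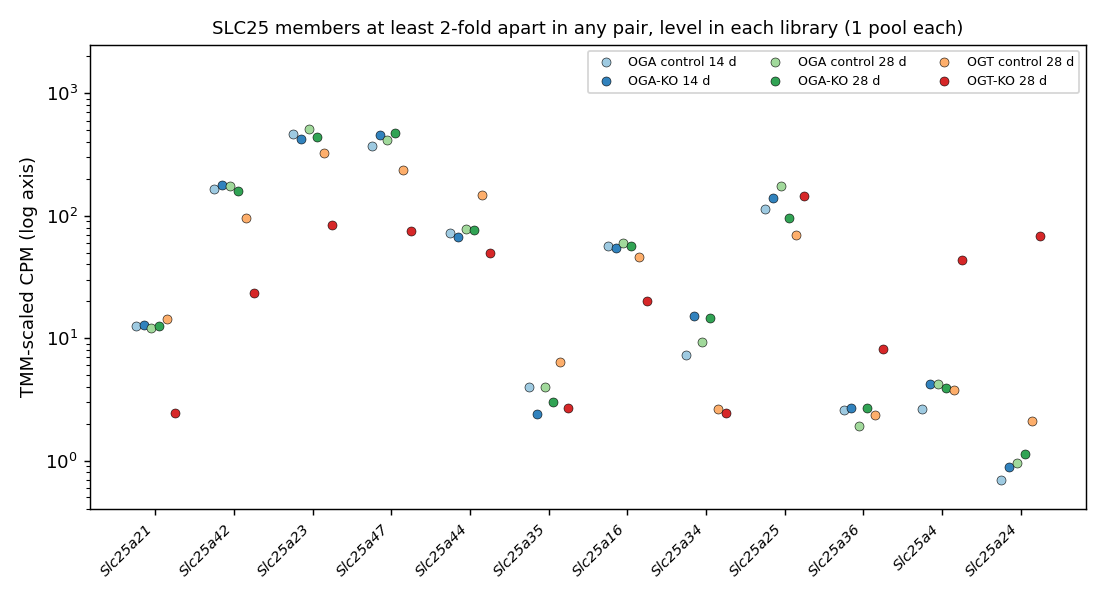
Level of the 12 members that differed at least 2-fold in any pair, as TMM-scaled CPM on a log axis, with 1 point per library (a pool of 3 mice). From left to right the members are ordered by their OGT ratio; the red OGT-KO point lies below the other 5 for Slc25a21, Slc25a42, Slc25a23, Slc25a47, Slc25a44, Slc25a16 and, by little, Slc25a34, and above them for Slc25a36, Slc25a4 and Slc25a24.

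All 4 carriers of carboxylates and keto acids fell, beside 26.6% of all genes, with a median log2 ratio of -0.77. Slc25a21 (ENSMUSG00000035472), which carries oxodicarboxylates of lysine and tryptophan breakdown, was at 12.5 and 12.8 CPM in OGA control and OGA-KO at 14 days, 12.0 and 12.7 at 28 days, 14.4 in OGT control and 2.47 in OGT-KO. The 5 other libraries differed little from each other and the OGT-KO library stood far below them. The log2 ratio was -2.50 (counting interval -2.94 to -2.16), from 69 against 332 counts, with an edgeR adjusted p of 0.000372. Slc25a1, the citrate exporter that supplies carbon for fatty acid and cholesterol synthesis, was at 287 to 293 CPM in the OGA libraries, 157 in OGT control and 79.0 in OGT-KO. Its log2 ratio was -0.99 (edgeR's adjusted p 0.00112), and the difference between the control lines at 28 days was nearly as large, at -0.90. Slc25a10, the dicarboxylate carrier, fell by 0.47 and Slc25a11, the oxoglutarate carrier of the malate-aspartate shuttle, by 0.55. The call for Slc25a1 was lost without the line term, and those for Slc25a10 and Slc25a11 also with library totals and by DESeq2's test.

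Genes that work with these carriers were counted from lists. Of 8 genes of the malate-aspartate shuttle and of citrate use, 5 fell and none rose (26.6% and 26.1% of all genes). The median log2 ratio was -0.79. Mdh1, the cytosolic malate dehydrogenase, was at 374 CPM in OGT control and 63.6 in OGT-KO (log2 ratio -2.55), and citrate synthase, Cs, at 200.3 and 73.6 (-1.44). Mdh2, the mitochondrial malate dehydrogenase, had a log2 ratio of 0.30 that did not pass edgeR's test.

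Among the amino acid carriers, 5 of the 8 with a row (10 listed) fell and none rose, beside 26.6% and 26.1% of all genes. The median log2 ratio was -0.70. Slc25a44, the branched-chain amino acid carrier, was at 72.4 and 66.6 CPM in OGA control and OGA-KO at 14 days, 77.5 and 77.2 at 28 days, 148 in OGT control and 50.0 in OGT-KO. Both OGT libraries lay outside the OGA libraries, the control above and the knockout below. The log2 ratio was -1.56 (edgeR's adjusted p 0.000326, a call that was lost without the line term). Slc25a13, citrin, which exports aspartate in the liver, was at 104 CPM in OGT-KO and 171 to 197 in the others, and fell by 0.72. Its paralogue Slc25a12, aralar, fell by 0.81, with 15.8 CPM in OGT-KO, 27.8 in OGT control and 17.2 to 19.1 in the OGA libraries. Slc25a15, which exchanges ornithine for citrulline and so ties mitochondria to the urea cycle, fell by 0.37 (0.01 above the control with library totals), and Slc25a38, which brings in glycine for haem synthesis, by 0.84. Slc25a22, a glutamate carrier, did not pass with a log2 ratio of -0.09 (0.28 with library totals), at 171 CPM in OGT-KO, 182 in OGT control and 263 to 332 in the OGA libraries. Slc25a26 (S-adenosylmethionine, 0.11) and Slc25a29 (basic amino acids, -0.69) did not pass either. Among the alternatives, the call for Slc25a12 was lost by DESeq2's test and without the line term. That for Slc25a38 was lost by DESeq2's test and with library totals, and that for Slc25a15 under all 3 of these. The call for Slc25a15 was also lost where either OGA control was left out together with the day term, but not without the day term alone.

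The urea cycle enzymes fell as a whole list, 6 of 6, beside 26.6% of all genes, with a median log2 ratio of -0.85. Cps1, which is also in the list of hepatocyte markers, had a log2 ratio of -0.41. It was at 3731 CPM in OGT-KO, inside the 3195 to 4046 of the OGA libraries, and at 4961 in OGT control. Otc, ornithine transcarbamylase of the matrix, had a log2 ratio of -2.15 and Ass1, argininosuccinate synthase, of -1.11.

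Among the carriers of cofactors and of nucleotides other than adenine, 2 of the 8 with a row (9 listed) rose, 5 fell and 1 did not pass, beside 26.1% and 26.6% of all genes that rose and fell, with a median log2 ratio of -0.63. Slc25a42 (ENSMUSG00000002346), the coenzyme A carrier, was at 166 and 177 CPM in OGA control and OGA-KO at 14 days, 175 and 158 at 28 days, 95.8 in OGT control and 23.3 in OGT-KO. It was the member with the second lowest ratio, -2.04 on the log2 scale (counting interval -2.17 to -1.92, edgeR's adjusted p 0.000324). The level was lowest in OGT-KO and intermediate in the OGT control. Slc25a16, also linked to coenzyme A in mitochondria, was at 56.3 and 54.6 CPM in OGA control and OGA-KO at 14 days, 59.6 and 56.1 at 28 days, 46.0 in OGT control and 20.1 in OGT-KO, and fell by 1.19. Slc25a17, the peroxisomal carrier of coenzyme A, FAD and NAD, fell by 0.71, and Slc25a32, a carrier of folate and FAD, by 0.51. The calls for Slc25a17 and Slc25a32 were lost with library totals, by DESeq2's test and without the line term, and that for Slc25a32 also without the day term, with all libraries kept or with either OGA control left out.

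The members of this group that rose were Slc25a36 and Slc25a51. Slc25a36 (ENSMUSG00000032449), a pyrimidine nucleotide carrier, was at 2.61 and 2.70 CPM in OGA control and OGA-KO at 14 days, 1.91 and 2.71 at 28 days, 2.34 in OGT control and 8.20 in OGT-KO. The OGT-KO library was above all the others, with 229 against 54 counts in the pair, and the log2 ratio was 1.78 (edgeR's adjusted p 0.00466). Its paralogue Slc25a33 fell by 0.71, at 12.1 CPM in OGT-KO, 19.8 in OGT control and 18.9 to 26.8 in the OGA libraries. Slc25a51, which carries NAD into the matrix, was at 115 CPM in OGT-KO, 81.4 in OGT control and 83.1 to 103 in the OGA libraries, a rise of 0.50 (edgeR's adjusted p 0.0149). By DESeq2's test the calls for Slc25a36, Slc25a33 and Slc25a51 were lost, as were those for Slc25a33 with library totals and for Slc25a51 without the line term. Among 11 enzymes of folate metabolism and cofactor use, 3 rose and 5 fell (26.1% and 26.6% of all genes), with a median log2 ratio of -0.24. The largest rises were in the folate enzymes Mthfd1l (2.58) and Mthfd2l (1.94), and the largest falls in Pank1, which starts coenzyme A synthesis (-2.79), and Shmt2, the mitochondrial serine hydroxymethyltransferase (-1.67).

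The carnitine and choline pair and the carriers of iron and glutathione lay closer to the control. Slc25a20, which brings acylcarnitines in for oxidation, fell by 0.31 (0.06 above the control with library totals), at 83.3 CPM in OGT-KO and 95.3 to 104 in the others, and Slc25a48, linked to choline, had a log2 ratio of 0.27 that did not pass. Of 8 carnitine cycle and oxidation genes, 1 rose and 3 fell, beside 26.1% and 26.6% of all genes. The one that rose was Crat, carnitine acetyltransferase (0.74), and Cpt2 (-0.93) and Acadvl (-0.75) were among those that fell. Of the 4 iron and glutathione carriers, Slc25a28, mitoferrin 2, fell by 0.48, at 24.0 CPM in OGT-KO, 33.6 in OGT control and 23.2 to 27.1 in the OGA libraries. Slc25a37, mitoferrin 1, the erythroid form, did not pass (0.13), nor did the glutathione carriers Slc25a39 (-0.17, and 0.20 with library totals) and Slc25a40 (0.26). With library totals Slc25a37 (0.50) and Slc25a48 (0.64) passed as higher. The calls for Slc25a20 and Slc25a28 were lost with library totals, by DESeq2's test and without the line term, and that for Slc25a20 also where either OGA control was left out together with the day term. Of 9 genes of haem and iron-sulphur cluster synthesis, 6 fell and none rose (26.6% and 26.1% of all genes), with a median of -0.62. Alas2, the erythroid start of haem synthesis and also an erythroid marker above, had a log2 ratio of -4.08. Cpox, coproporphyrinogen oxidase, had a log2 ratio of -1.80.

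The 9 remaining members (11 listed) are uncoupling-protein-like or have no settled substrate, except Slc25a46, an outer membrane protein of mitochondrial fission and lipid handling. Of the 9, 1 rose, 3 fell and 5 did not pass, beside 26.1% and 26.6% of all genes that rose and fell. The median log2 ratio was -0.09. Slc25a47 (ENSMUSG00000048856), a liver-enriched carrier, was at 374 and 461 CPM in OGA control and OGA-KO at 14 days, 416 and 474 at 28 days, 239 in OGT control and 74.7 in OGT-KO. The knockout was lowest, with a log2 ratio of -1.67 (counting interval -1.75 to -1.60, edgeR's adjusted p 0.000312), and the OGT control was below the OGA libraries. Slc25a35 was at 4.0 and 2.41 CPM in OGA control and OGA-KO at 14 days, 3.97 and 2.99 at 28 days, 6.37 in OGT control and 2.69 in OGT-KO. It fell by 1.22 between libraries of 147 and 75 counts, to a level that OGA-KO liver at 14 days also showed. Slc25a45 fell by 0.73. Both calls were lost by DESeq2's test and without the line term, and that for Slc25a45 also with library totals and without the day term. Slc25a30, KMCP1, was at 38.9 and 49.1 CPM in OGA control and OGA-KO at 14 days, 37.0 and 29.7 at 28 days, 72.5 in OGT control and 141 in OGT-KO. It rose by 0.96 (edgeR's adjusted p 0.0148), and the OGT control was itself above the OGA libraries by about as much (0.97 against the OGA control of the same day). The call was lost without the line term and where either OGA control was left out together with the day term, but not without the day term alone. Slc25a14 (0.45), Slc25a27 (0.86), Slc25a34 (-0.09, and 0.27 with library totals), Slc25a46 (-0.42) and Slc25a53 (0.96) did not pass, with at most 92 counts in either OGT library for all of them but Slc25a46. With library totals Slc25a27 passed as higher (1.26). Slc25a46 passed as lower where either OGA-KO library was left out together with the day term.

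Relatives outside the symbol rule gave values of both signs. Ucp2, an uncoupling protein of the same family known from macrophages and other immune cells, rose from 27.0 to 125 CPM (log2 ratio 2.21), Mtch2, an outer membrane insertase, fell by 0.85 and Mtch1 had a log2 ratio of -0.01. Of 12 other mitochondrial membrane transporters with a row (13 listed), 9 fell and 1 rose (26.6% and 26.1% of all genes), with a median of -0.60. The one that rose was Sfxn3, a sideroflexin (3.25), and the largest falls were in Sfxn5, another sideroflexin (-2.11), and Abcb8 (-1.73). Of 13 genes of the machinery that inserts carriers into the inner membrane, 6 fell and none rose, with a median of -0.44. The largest falls were in the small chaperones Timm10 (-1.06) and Timm13 (-0.88). Timm13 was at its lowest of the series in OGT-KO, but the OGT-KO level of Timm10 lay inside the span of the OGA libraries. For Timm10 it was the OGT control that stood apart, with a log2 ratio of 1.26 to the OGA control of the same day.

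**Figure D3:**
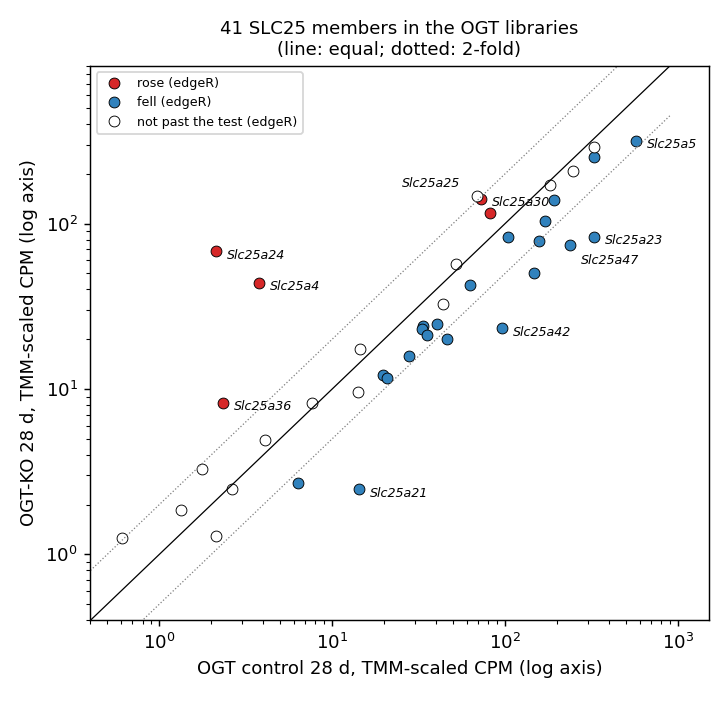
Level of each of the 41 members in the OGT control (horizontal) and the OGT-KO library (vertical), as TMM-scaled CPM on log axes. Red points rose and blue points fell by edgeR's test, open points did not pass, the solid line marks equal levels and dotted lines 2-fold. Most members with more than 10 CPM in the control lie below the solid line, and Slc25a24, Slc25a4 and Slc25a36 start below 4 CPM and lie far above it.

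In the ATP-Mg/phosphate, ADP/ATP and pyrimidine nucleotide sets, the mix of paralogues shifted in the OGT-KO library. Shares were computed from counts per base of exon. In the ATP-Mg/phosphate set, Slc25a23 made up 86.8% in OGT control and 80.9 to 86.9% in the OGA libraries, and 29.1% in OGT-KO. Slc25a24 went from 0.870% (0.196 to 0.343% in the OGA libraries) to 36.5%, and Slc25a25 from 12.4% (12.8 to 18.9%) to 34.3%, so that 3 forms stood near a like level where 1 had led. In the ADP/ATP set, Slc25a4 took 0.458% in OGT control (interval 0.367 to 0.565), 0.554 to 0.883% in the OGA libraries and 8.82% in OGT-KO (8.34 to 9.31), while Slc25a5 remained the main form. In the pyrimidine nucleotide set, Slc25a36 took 2.28% in OGT control, 1.87 to 2.64% in the OGA libraries and 11.8% in OGT-KO.

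Among the other sets of paralogues, the aspartate/glutamate and uncoupling-protein-like shares hardly differed between the OGT libraries. Slc25a12 took 7.76% of the aspartate/glutamate set in OGT control and 7.29% in OGT-KO, against 4.45 to 5.05% in the OGA libraries. Slc25a40 took 0.407% and 0.552% of the glutathione set, and Slc25a30 94.0% and 95% of the uncoupling-protein-like set. Of the mitoferrins, Slc25a28 took 50.9% in OGT control and 40.4% in OGT-KO, and 36.6 to 47.3% in the OGA libraries. In the set of Slc25a34 and Slc25a35, Slc25a34 took 36.4% in OGT control (interval 29.4 to 43.7) and 55.9% in OGT-KO (47.4 to 64.0), from 208 and 144 counts in the set. These shares come from 1 library per group and have no test of their own.

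**Figure D4:**
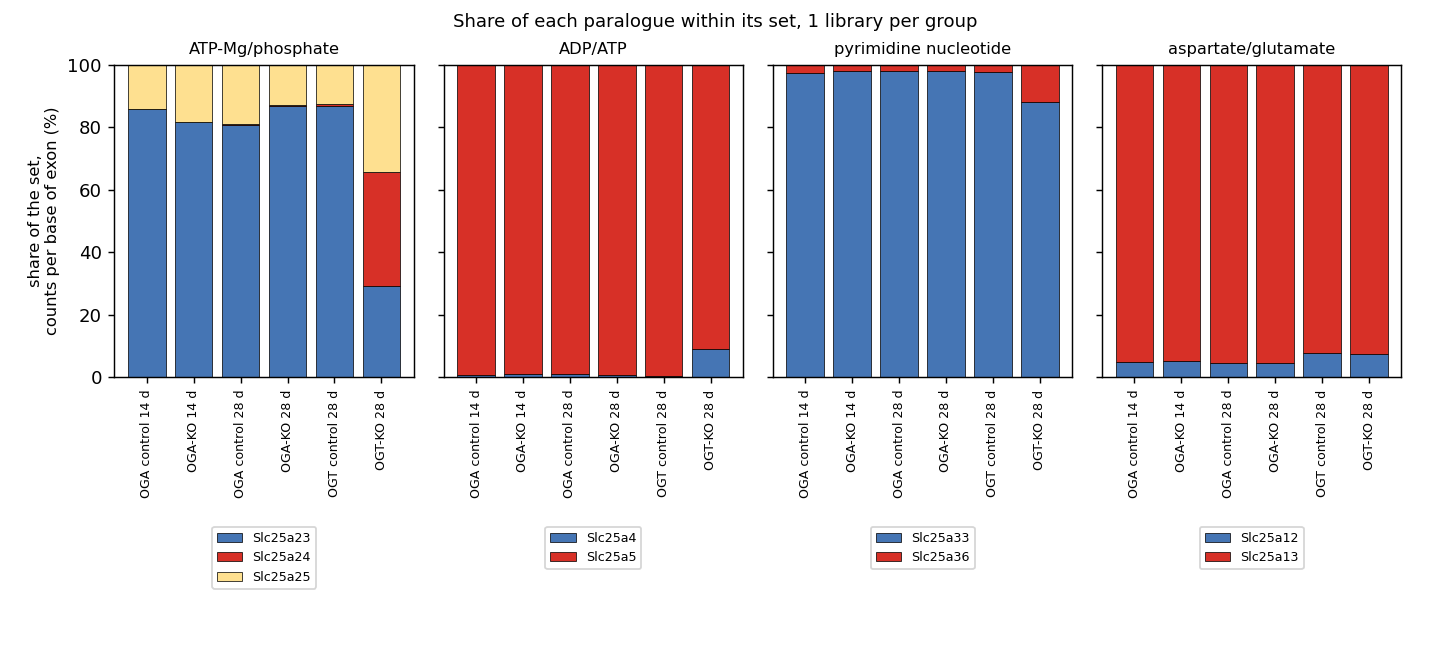
Stacked bars of the share of each paralogue within 4 sets of carriers of the same substrate, from counts per base of exon (vertical axis, %), for the 6 libraries of 1 pool each. In the ATP-Mg/phosphate panel Slc25a23 fills 80.9 to 86.9% of 5 bars and 29.1% of the OGT-KO bar, and in the ADP/ATP panel Slc25a4 fills 8.82% of the OGT-KO bar and under 1% of the others.

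Levels can be ordered between genes per kb of exon. Slc25a5 led in every library, at 193 to 348 CPM per kb, and Slc25a39 followed, at 106 to 170. Slc25a47 and Slc25a1 came next in 5 libraries, at 79.9 to 159 for Slc25a47 and 72.4 to 135 for Slc25a1, and neighbouring ranks such as these were not tested against each other. Slc25a23 held rank 5 in those 5 libraries, at 61.7 to 95.9. In the OGT-KO library Slc25a47 held rank 10 at 25.0 CPM per kb, Slc25a1 rank 6 at 36.5 and Slc25a23 rank 17 at 15.8. Slc25a24 stood at 19.8 and Slc25a4 at 18.7 there, from 0.619 and 1.60 in OGT control. Slc25a53 was the lowest member in every library.

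In the OGA pairs the median of the family lay close to the control at both times. No member rose or fell by edgeR's quasi-likelihood test with Benjamini-Hochberg adjustment (0 of 41, lowest adjusted p 0.193), where 0.0333% of all genes passed. At an unadjusted p under 0.05 there were 7 members (17.1%, beside 13.0% of all genes), and DESeq2's Wald test also called 0. The median log2 ratio of OGA-KO to control was 0.03 at 14 days and 0.04 at 28 days, and over all genes 0.00 and 0.01. Slc25a34 was the 1 member at least 2-fold higher at 14 days (0.534% of all genes were), none was at least 2-fold lower (0.305%), and at 28 days no member was past 2-fold either way (1.7% of all genes higher and 0.869% lower). The OGA-KO library at 28 days is the one that carried pancreas transcripts, and their part in these values was not tested.

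Signs at the 2 times, which come from separate knockouts and controls, were the same for 27 members (65.9%) and opposite for 14. Over all genes 62.4% had the same sign, a like share. Of the 27, 16 were higher and 11 lower in OGA-KO. Slc25a34, whose substrate is not settled, was at 7.31 CPM in OGA control and 15.3 in OGA-KO at 14 days, 9.25 and 14.7 at 28 days, and 2.64 and 2.47 in OGT control and OGT-KO. Both OGA-KO libraries were above both OGA controls, and both OGT libraries were below all of them. The log2 ratios were 1.06 (counting interval 0.81 to 1.33) from 414 against 179 counts and 0.66 (0.43 to 0.91) from 363 against 242, and edgeR's adjusted p over both times was 0.193. Within the set of Slc25a34 and Slc25a35, Slc25a34 took 71.6% and 76.2% in the OGA controls at 14 and 28 days and 89.8% and 87.1% in OGA-KO.

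The other members with the same sign at both times had smaller differences. Slc25a33, the pyrimidine nucleotide carrier named above, was at 18.9 and 26.8 CPM in OGA control and OGA-KO at 14 days and 19.7 and 26.2 at 28 days, with log2 ratios of 0.50 and 0.41. Slc25a24 had ratios of 0.32 and 0.23 from at most 28 counts, and both counting intervals included 0. Slc25a35 was lower, with log2 ratios of -0.72 and -0.40, again from few counts (65 against 98 and 74 against 104). Slc25a23 had log2 ratios of -0.14 and -0.20, and Slc25a3 of -0.06 at 14 days and -0.07 at 28 days.

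The controls set the scale against which these differences can be read. Between the OGA controls at 28 and 14 days no member differed 2-fold (0.927% of all genes did), which compares 2 pools and times together. Between the OGT and the OGA control at 28 days, 1 member was at least 2-fold higher in the OGT control (Slc25a24, log2 ratio 1.09, where 4.72% of all genes were) and 3 were at least 2-fold lower (Slc25a34 -1.78, Slc25a25 -1.35 and Slc25a53 -1.01, where 5.72% were). Among the 3 controls 16 members (39.0%) differed at least 1.5-fold from highest to lowest and 5 (12.2%) at least 2-fold, beside 34.0% and 13.7% of all genes with at least 1 CPM in a control, the latter being Slc25a34 (3.50-fold), Slc25a24 (3.06-fold), Slc25a25 (2.55-fold), Slc25a53 (2.49-fold) and Slc25a44 (2.04-fold). The OGT-KO level lay outside the span of the 3 controls for 35 members (85.4%, beside 77.9% of all genes). Slc25a24 differed 30.9-fold in the OGT pair against 3.06-fold among the controls, Slc25a4 11.4-fold against 1.58-fold and Slc25a21 5.67-fold against 1.20-fold. The control lines differed widely for some members that passed edgeR's test. The log2 ratio of the OGT pair and that of OGT to OGA control were -0.99 and -0.90 for Slc25a1, 0.96 and 0.97 for Slc25a30, -0.85 and 0.74 for Slc25a5, and -1.56 and 0.93 for Slc25a44.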

How the data were processed

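Messenger RNA was sequenced from whole liver in 6 libraries, each a pool of 3 mice run in 2 lanes. The authors deposited whole-number counts for Ensembl genes, 1 column a library, and a table of CPM, the count scaled by library size. Per the submitters' processing notes STAR, Subread and edgeR were used with the build mm39; versions, strand setting and row filter are not given in the sources used here. In the OGT columns the deposited CPM place 0.769% (OGT-KO) and 0.104% (control) of counts outside the 12027 rows. Symbols came from GENCODE M21 (12019 identifiers matched), and lengths are the union of exons there.

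The counts were fitted over all 6 libraries with edgeR 4.0.16 in R 4.3.3 (filterByExpr, TMM, quasi-likelihood F test), with terms for line, day, OGA-KO and OGT-KO, 5 coefficients and 1 residual degree of freedom. The threshold was a Benjamini-Hochberg adjusted p under 0.05 over 12026 genes, and a gene rose or fell only if it passed. Pair ratios are log2 of TMM-scaled CPM with a prior count of 2. Their 95% intervals are exact Clopper-Pearson and cover counting error only, not differences between mice or libraries. No molecular identifiers are mentioned in the sources used here, so duplicate reads could not be set apart. The size rule asked for 2-fold and, in the higher library, at least 1 CPM.

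Values in every library are given for members at least 2-fold apart in any pair, for paralogue sets, and for the 3 highest and 3 lowest members in OGA-KO by the smaller ratio of both times. From each list of partner genes the largest changes are named. Library totals, DESeq2 1.42.0, other filters, prior counts, terms and left-out libraries were tried. The single values of 1 member are not reported here. The members and lists were chosen with earlier results of these data known.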

Additional observations from a re-analysis of the deposited data

Results flagged for a closer look

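Slc25a25, the calcium-regulated ATP-Mg/phosphate carrier SCaMC2, differed in direction between the times in the OGA pairs. The log2 ratio of OGA-KO to control was 0.30 at 14 days and -0.87 at 28 days, and both counting intervals excluded 0. Slc25a30, an uncoupling-protein-like carrier, did the same, with 0.34 at 14 days and -0.32 at 28 days. Each value rests on 1 library per group, and the difference between the times was not tested.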

How the results depend on the processing

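No paired analysis was possible because each group had 1 library, so that no replicates could be matched; the day and line terms of the fit already set each OGA-KO library against the control of its day. Of the 26 members past edgeR's test in OGT-KO, 8 passed in the same direction under all 10 alternatives of the fit. The like share of all called genes was not computed. DESeq2's size factors within edgeR and the fit without a filter each lost 0 calls. The 5 higher and 21 lower calls became 9 and 11 with library totals, 3 and 9 by DESeq2's Wald test (10% and 14.0% of all genes) and 3 and 8 without the line term (13.4% and 11.8%). Leaving out 1 OGA library needed the day term to be dropped as well, for a residual degree of freedom. That lost 4 calls for either OGA control and 0 for either OGA-KO library, and dropping the day term alone lost 2. Library totals also gave 7 members at least 2-fold higher in the OGT pair in place of 4 (23.9% of all genes), a median log2 ratio of -0.10 in place of -0.47, and OGT-KO as the highest library for 16 and the lowest for 11 members in place of 8 and 25 (61.5% and 18.2% of all genes). They reversed the OGT-KO effect, by the fit's log2 value, of Slc25a3 (0.12), Slc25a15 (0.006), Slc25a20 (0.057), Slc25a22 (0.28), Slc25a34 (0.27) and Slc25a39 (0.20). The OGA-KO effect of Slc25a24 was -0.13 without the line term. With 1.5-fold in place of 2-fold there were 7 members higher and 16 lower in the OGT pair (24.8% and 22.2% of all genes), 2 and 2 in the OGA pair at 14 days (2.79% and 1.84%) and 1 and 1 at 28 days (5.0% and 3.55%). With the library size behind the deposited CPM, members took 0.371% of the OGT-KO library in place of 0.374%. The cause of these shifts was not tested. With 1 pool per group, differences between mice cannot be seen, and small counts such as those of Slc25a53 (14 in OGT control) limit the ratios of the rarest members.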
